A study of Aspergillus nidulans with 4 samples.

Results

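The genes described here are the 8 of *Aspergillus nidulans* that encode the subunits of the cAMP-dependent protein kinase (PKA) and of the heterotrimeric G proteins, out of 10930 genes listed. They were chosen by identifier and by known role, without use of their values, though earlier results of these data were known. The PKA genes are 3, *pkaA* (AN6305), *pkaB* (AN4717) and *pkaR* (AN4987). The G protein genes are 5, *ganA* (AN3090), *ganB* (AN1016), *fadA* (AN0651), *sfaD* (AN0081) and *gpgA* (AN2742). All 8 had reads in both strains and all 8 passed the filter on low values.

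PKA is held inactive as a complex of regulatory and catalytic subunits. When cAMP, made by adenylate cyclase and broken down by phosphodiesterases, binds the regulatory subunits, the catalytic subunits are released and phosphorylate their targets. A heterotrimeric G protein consists of an α subunit, which binds GTP, and a β and a γ subunit, which act as a pair. RGS proteins (regulators of G protein signaling) speed the return of an α subunit to its GDP-bound state. In *A. nidulans* these pathways are known for their part in glucose sensing, spore germination, hyphal growth and the choice between growth and asexual sporulation.

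RNA-seq was done on mycelium of the Δ*pkaA* strain (labelled AN1358, with a deletion of the PkaA kinase) and of its parental strain (labelled AN1405, the WT), with 2 samples of each strain. Both strains were grown in YGV, a rich medium that holds 0.5% yeast extract and 2% glucose, with shaking at 250 rpm and 28°C, and were harvested at about 20 h in late exponential phase, after a seed culture that per the labels lasted 12 h at pH 3.3. The Δ*pkaA* strain is 1 deletion strain, and no complemented strain was analysed here. No other allele of either strain is given in the labels.

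The deposited value of a gene is its mean normalized count in a strain, which is the number of reads on the gene, divided by a size factor for each library and averaged over the libraries. The means summed to 29312151 in Δ*pkaA* mycelium and to 31012501 in WT, and the 10 highest genes held 5.10% and 6.49% of these sums. Because reads are whole, the value in each of the 2 libraries of a strain could be worked out from the mean for 8884 of 10361 means above 0 of the Δ*pkaA* strain (85.7%) and for 9828 of 10381 of the WT (94.7%). These libraries are called a and b within each strain. They could not be matched to the labelled replicates, so library a of one strain has no tie to library a of the other. For 6 of the 8 genes 1 pair of library values within 0.5 of each other on the log2 scale gave the mean in both strains. For *sfaD* and *gpgA* several such pairs remained in Δ*pkaA* mycelium, and the test was run on each. Conidiophore and spore genes, which growing mycelium expresses little, were above 0 in every library. By the limma test described below, not planned for them, 7 of 7 were tested. Of these, 3 were higher (*wetA*, *yA* and *dewA*), 3 were lower (*abaA*, *wA* and *rodA*) and *brlA* did not pass. Over all genes fitted 31.7% were called higher and 32.7% lower. *dewA* had few reads, with 27 and 26 in Δ*pkaA* mycelium and 10 and 9 in WT. The summed value of the 7 genes was 689 and 729 in the libraries of the Δ*pkaA* strain, against 1931 and 1440 in those of the WT. Most of that sum in WT was *abaA*, a regulator of conidiophore development, with a mean of 134 in Δ*pkaA* mycelium and 951 in the WT, whose 2 libraries stood at 1207 and 694. The part of these genes in the results below was not tested, and in RNA of whole mycelium fewer cells of a type and less RNA per cell cannot be told apart.

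Among the 8 genes, 2 fell in Δ*pkaA* mycelium (*pkaA* itself and *pkaR*), 2 rose (*ganA* and *sfaD*), and 4 did not pass the test (*pkaB*, *ganB*, *fadA* and *gpgA*). The test was limma on log2(value + 1) over the 2 libraries of each strain, called at a Benjamini-Hochberg adjusted p below 0.05, and over all 7860 genes fitted it called 64.4%, with 31.7% higher and 32.7% lower. A count of 4 in 8 genes is therefore no more than was called in the transcriptome as a whole. By the means alone, only *pkaA* differed by at least 2-fold, against 36.5% of the 10545 genes with reads (17.9% higher and 18.6% lower). On the log2 scale the median ratio of these 8 genes was 0.096, beside -0.0071 over all genes with reads. In what follows a fold is the ratio of the strain means, and a log2 fold change is limma's, on log2(value + 1).

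**Figure D1:**
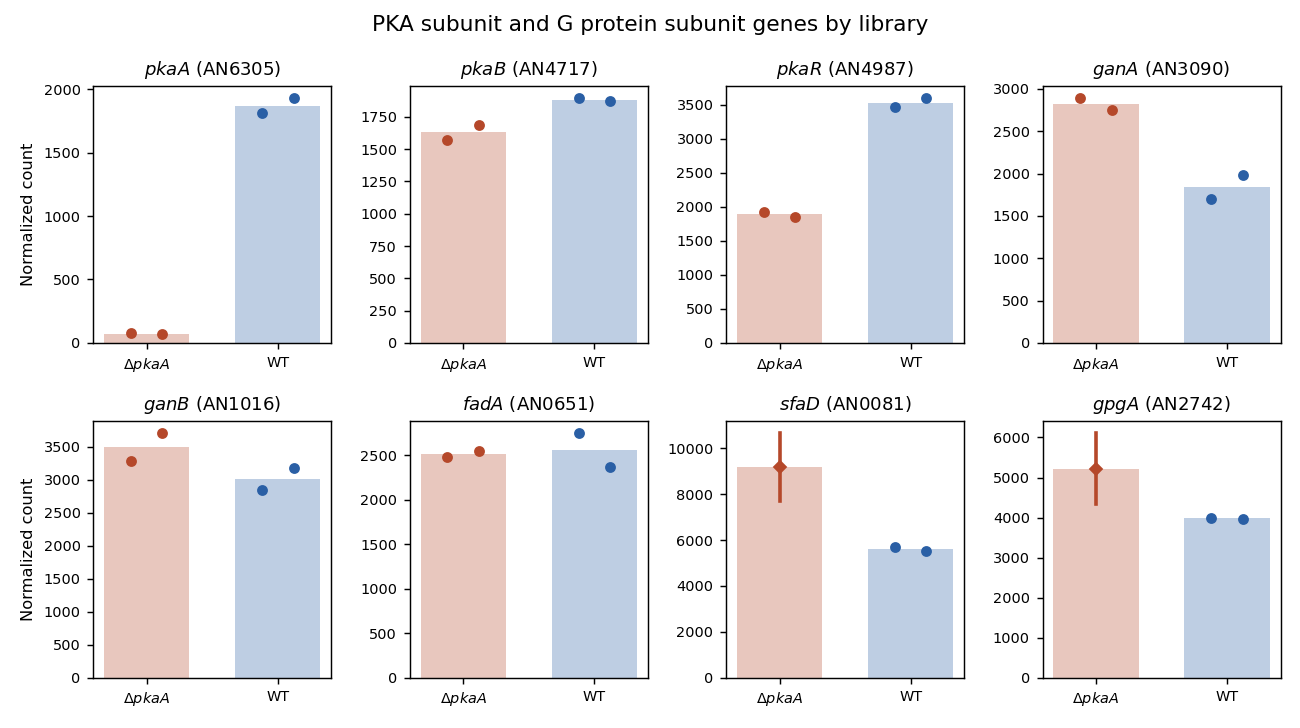
Normalized counts (y axis, each panel from 0) of the 8 genes in Δ*pkaA* mycelium (red, left) and the WT (blue, right); bars are the deposited strain means and dots the 2 libraries. For *sfaD* and *gpgA* in Δ*pkaA* mycelium the diamond is the mean, and the line spans the pairs of library values that give it and differ by at most 0.5 on the log2 scale (7720 to 10659 and 4329 to 6107). Only *pkaA* is near 0 in Δ*pkaA* mycelium. With the pairs drawn, the libraries of the strains overlap for *fadA* alone, and those of *pkaB* and *ganB* lie close.

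The deleted gene was examined first. *pkaA*, the main catalytic subunit, is listed at 603835 to 606464 on the minus strand (chromosome I by RefSeq, as are the chromosomes given for the other genes). It had normalized counts of 77.5 and 70.2 in the Δ*pkaA* libraries, from 79 and 69 reads, against 1811 and 1927 in the WT libraries. The groups were far apart, with a mean 25.3-fold lower in Δ*pkaA* mycelium, and the log2 fold change was -4.64 (SE 0.14, limma adjusted p = 7.79e-07). Of 8159 genes that averaged at least 100, 3.05% had a larger ratio in either direction. The level was thus low but not 0 in Δ*pkaA* mycelium. The listed span of *pkaA* overlaps that of AN6306, on the opposite strand, by 110 bases. AN6306, whose orthologs act in protein import into mitochondria, had a mean of 3214 in Δ*pkaA* mycelium and 2538 in WT. The counting is not stated to use strand, so reads in the shared bases cannot be told apart, and how much of *pkaA* the deletion removed was not examined here.

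*pkaB*, the second catalytic subunit of PKA (1198336 to 1200592, plus strand, chromosome III), had normalized counts of 1573 and 1690 in the Δ*pkaA* libraries, against 1893 and 1872 in the WT libraries. Both Δ*pkaA* libraries were below both WT libraries, with a mean ratio of 0.867. The difference did not pass the test, with a log2 fold change of -0.21 (SE 0.096, 95% interval -0.43 to 0.02, limma adjusted p = 0.0956). The interval thus reaches from a moderate decrease to almost no rise of *pkaB*.

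*pkaR* encodes the regulatory subunit (364139 to 366681, plus strand, chromosome III). Its normalized counts were 1920 and 1858 in the Δ*pkaA* libraries, against 3469 and 3594 in the WT libraries. The libraries of a strain lay close together and those of the strains far apart, and the mean was 1.87-fold lower in Δ*pkaA* mycelium. The log2 fold change was -0.90 (SE 0.089, limma adjusted p = 0.00012), and it stayed between -0.93 and -0.88 when any 1 library was left out. Among genes averaging at least 100, 31.8% had a larger ratio in either direction. The end of *pkaR* overlaps AN4986, on the opposite strand, by 206 bases, and AN4986 had means of 411 in Δ*pkaA* mycelium and 553 in WT.

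Expressed per 1000 bases of listed span, so that genes of different length can be set side by side, the catalytic subunits *pkaA* and *pkaB* together had a level of 751 in Δ*pkaA* mycelium (726 and 776 in its libraries) and of 1545 in WT (1527 and 1562). The summed level was 2.06-fold lower in Δ*pkaA* mycelium, most of it from *pkaA*, with 28.1 in Δ*pkaA* mycelium and 711 in WT. The level of *pkaR* was 743 in Δ*pkaA* mycelium and 1389 in WT. The ratio of *pkaR* to the summed catalytic subunits was therefore 0.989 in Δ*pkaA* mycelium (1.04 and 0.942 in its libraries) and 0.899 in WT (0.893 and 0.905). Both Δ*pkaA* libraries were above both WT libraries in this ratio, by less in one of them than the gap between the Δ*pkaA* libraries themselves. Against *pkaB* alone, the ratio of *pkaR* was 1.03 in Δ*pkaA* mycelium (1.08 and 0.976) and 1.67 in WT (1.63 and 1.70), and here the strains lay well apart. These ratios were not tested.

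**Figure D2:**
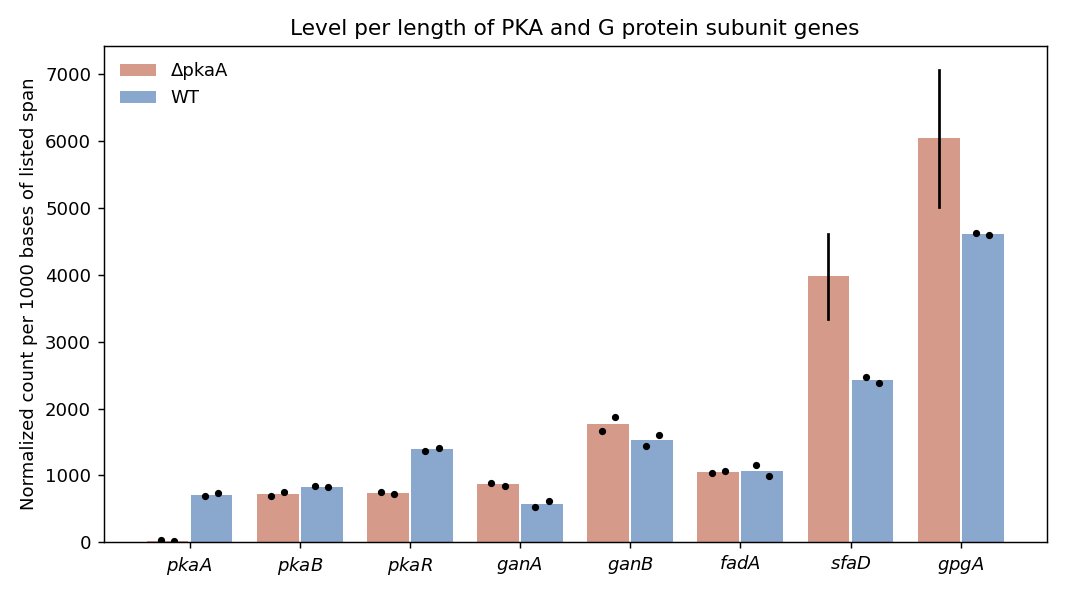
Level per length of the 8 genes, as normalized count per 1000 bases of the listed span (y axis, from 0), in Δ*pkaA* mycelium (red, left of each pair) and the WT (blue, right). Bars are from the strain means, dots are the 2 libraries, and black lines span the pairs of library values of *sfaD* and *gpgA* in Δ*pkaA* mycelium that differ by at most 0.5 on the log2 scale; *pkaA* and *pkaR* are lower in Δ*pkaA* mycelium, and *sfaD* and *gpgA* have the highest levels in both strains.

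Of the 5 genes of the G protein 2 rose, 0 fell and 3 did not pass by limma, where 31.7% of all genes fitted were called higher and 32.7% lower. Of the 3 α subunit genes, only *ganA* passed. *ganA*, the least studied of them (1874775 to 1878014, plus strand, chromosome VI), had normalized counts of 2887 and 2749 in the Δ*pkaA* libraries, against 1697 and 1987 in the WT libraries. With the pair within the limit of 0.5 the groups did not overlap, although the WT libraries differed by 15.7% of their mean. A Δ*pkaA* pair of 1986 and 3650, outside that limit, also gives the mean and would overlap the WT libraries. The mean was 1.53-fold higher in Δ*pkaA* mycelium, with a log2 fold change of 0.62 (SE 0.11, limma adjusted p = 0.00211). Without any 1 library the log2 fold change lay between 0.50 and 0.73, and the highest adjusted p was 0.0272.

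*ganB* encodes the α subunit that acts through cAMP and PKA in the germination of conidia (1793440 to 1795415, plus strand, chromosome VIII). It had normalized counts of 3288 and 3707 in the Δ*pkaA* libraries, against 2847 and 3172 in the WT libraries. With the pair within the limit of 0.5 the groups did not overlap, but the lower Δ*pkaA* library was close to the higher WT library. Δ*pkaA* pairs of 4189 and 2806 and of 2387 and 4608, outside that limit, also give the mean. Each of them has a library below both WT libraries. The log2 fold change of 0.22 (SE 0.10, 95% interval -0.032 to 0.46) did not pass (limma adjusted p = 0.108). It was 0.30 without Δ*pkaA* library a (adjusted p = 0.119), 0.13 without Δ*pkaA* library b (adjusted p = 0.457) and 0.14 without WT library a (adjusted p = 0.289). It passed without WT library b (0.29, adjusted p = 0.0355) and when the means were rescaled to the same sum in both strains (adjusted p = 0.0398).

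*fadA* encodes the α subunit that promotes vegetative growth and is turned off through the RGS protein FlbA (2883440 to 2885822, plus strand, chromosome VIII). Its normalized counts were 2480 and 2549 in the Δ*pkaA* libraries, against 2748 and 2369 in the WT libraries. Both Δ*pkaA* libraries lay between the WT libraries. The log2 fold change was -0.021 (SE 0.10, 95% interval -0.27 to 0.23, limma adjusted p = 0.873), and 97.1% of genes averaging at least 100 had a larger ratio in either direction. The sign turned with rescaling to the same sum, at 0.061, and without WT library a, at 0.086. *fadA* shares 496 bases with AN0650 on the opposite strand, whose mean was 1693 in Δ*pkaA* mycelium and 3435 in WT, so that reads of the shared bases cannot be told apart here either.

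Per 1000 bases, the 3 α subunit genes together had a level of 3695 in Δ*pkaA* mycelium (3596 and 3794) and of 3165 in WT (3118 and 3213), a ratio of 1.17. Within that sum *ganA* took 23.5% in Δ*pkaA* mycelium (24.8% and 22.4%) and 18.0% in WT (16.8% and 19.1%). The share of *fadA* was 28.6% in Δ*pkaA* mycelium (28.9% and 28.2%) and 33.9% in WT (37.0% and 30.9%). *ganB* had the largest share in both strains, at 47.9% in Δ*pkaA* mycelium and 48.1% in WT. With the pairs taken, the libraries of the strains did not overlap in the shares of *ganA* and *fadA*, while the shares of *ganB* overlapped. The level of *fadA* itself was 1055 in Δ*pkaA* mycelium and 1073 in WT, so its smaller share goes with the larger sum. Shares were not tested, and they depend on the length taken: with the gene lengths of RefSeq *ganA* took 35.4% in Δ*pkaA* mycelium and 28.2% in WT, and *fadA* 22.7% and 28.1%.

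*sfaD*, the β subunit (4669166 to 4671479, minus strand, chromosome VIII), had a mean of 9190 in Δ*pkaA* mycelium. Its normalized counts in the WT libraries were 5711 and 5524, with a mean of 5618. The mean of the Δ*pkaA* strain can come from 4 pairs of libraries that differ by at most 0.5 on the log2 scale, which are 8857 and 9522, 9758 and 8621, 7956 and 10423, or 10659 and 7720. In each of these pairs both Δ*pkaA* libraries are above both WT libraries. The mean was 1.64-fold higher in Δ*pkaA* mycelium. With the pair whose libraries differ most, the log2 fold change was 0.69 (SE 0.15, limma adjusted p = 0.00512), and with the pair that differs least the adjusted p was 0.000268. With the widest pair and any 1 library left out the log2 fold change was between 0.46 (without Δ*pkaA* library a) and 0.92 (without Δ*pkaA* library b), and *sfaD* stayed past the threshold (highest adjusted p = 0.0364).

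*gpgA* encodes the γ subunit (2948453 to 2949317, plus strand, chromosome VI). Its mean was 5218 in Δ*pkaA* mycelium, and its normalized counts in the WT libraries were 3991 and 3970, with a mean of 3981. The mean of the Δ*pkaA* strain can come from libraries of 5206 and 5230 or of 6107 and 4329 within the same limit, and a pair of 4305 and 6131 lies just outside it. Both pairs within the limit lie above the WT libraries, and the mean was 1.31-fold higher in Δ*pkaA* mycelium. The call turned on the pair. With the wider pair the log2 fold change was 0.37 (SE 0.16, 95% interval 0.00047 to 0.74, limma adjusted p = 0.0732), and with the closer pair it was 0.39 (limma adjusted p = 0.00431 to 0.00438). The wider pair was taken for the counts of calls. With it, the log2 fold change of *gpgA* was 0.12 without Δ*pkaA* library a (adjusted p = 0.446), and *gpgA* passed without Δ*pkaA* library b (0.62, adjusted p = 0.0131) and with rescaling to the same sum (adjusted p = 0.0372).

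The β and γ subunits work as a pair, and per 1000 bases of listed span their genes had the highest levels of the 8. *gpgA* stood at 6032 in Δ*pkaA* mycelium and 4602 in WT, and *sfaD* at 3971 in Δ*pkaA* mycelium and 2428 in WT. The ratio of *sfaD* to *gpgA* was 0.658 in Δ*pkaA* mycelium and 0.528 in WT (0.535 and 0.52 in the WT libraries). The summed α subunits stood at 0.613 of *gpgA* in Δ*pkaA* mycelium and at 0.688 in WT (0.676 and 0.700). A level between genes depends on the length taken. With the gene lengths of RefSeq the ratio of *sfaD* to *gpgA* was 1.04 in Δ*pkaA* mycelium and 0.831 in WT, so that *sfaD* was then above *gpgA* in Δ*pkaA* mycelium. The fold between the strains in this ratio does not depend on it, since the length of a gene is the same in both.

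In the Δ*pkaA* strain the order by level per 1000 bases of listed span was *gpgA*, *sfaD*, *ganB*, *fadA*, *ganA*, *pkaR*, *pkaB* and *pkaA*. From *ganB* on, with the pairs taken, the libraries of neighbours in this order did not overlap, except those of *pkaR* (755 and 731) and *pkaB* (697 and 749). For *gpgA* and *sfaD* the library values are not settled in Δ*pkaA* mycelium. In the WT the order was *gpgA*, *sfaD*, *ganB*, *pkaR*, *fadA*, *pkaB*, *pkaA* and *ganA*, and no neighbours overlapped. The closest there were *ganB* (1441 and 1605 in the WT libraries) and *pkaR* (1364 and 1413). *pkaR* was thus behind all 3 α subunits in Δ*pkaA* mycelium and behind *ganB* alone of them in WT, which also held with the gene lengths of RefSeq. Other places in the order turned with those lengths. The ratio of *ganA* to *fadA* was 0.824 in Δ*pkaA* mycelium and 0.530 in WT by listed span, against 1.56 in Δ*pkaA* mycelium and 1.00 in WT by RefSeq length, and by RefSeq length *ganA* was above *pkaA* and *pkaB* in both strains and *pkaB* above *pkaR* in Δ*pkaA* mycelium.

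**Figure D3:**
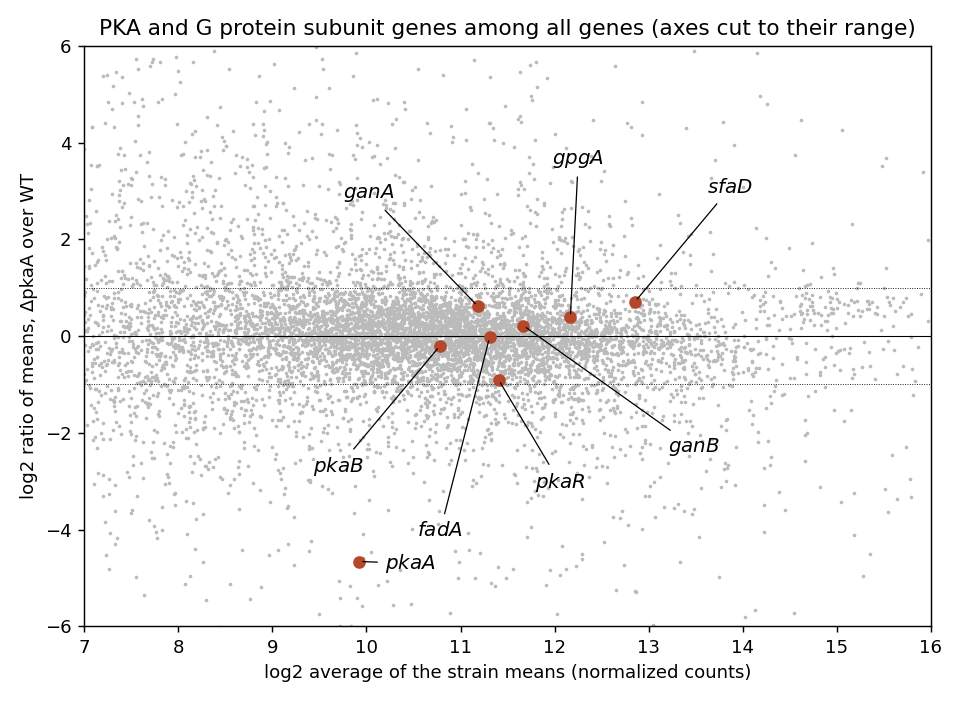
Log2 ratio of the strain means, Δ*pkaA* over WT (y axis), against the log2 average of the means (x axis) for genes with reads in both strains (grey), with the 8 genes in red; dotted lines mark 2-fold, and the axes are cut, so that genes beyond them are not drawn. *pkaA* lies at -4.66, below most genes of its level, and the other 7 lie inside the dotted lines, from -0.90 for *pkaR* to 0.71 for *sfaD*.

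The listed genes nearest to *sfaD* also had higher means in Δ*pkaA* mycelium. *phnA* (AN0082), which encodes a phosducin-like protein, a family that assists the βγ pair, lies beside *sfaD* on the same strand. It had normalized counts of 2184 and 2353 in the Δ*pkaA* libraries, against 1317 and 1493 in the WT libraries. The groups did not overlap, and the log2 fold change was 0.69 (SE 0.11, limma adjusted p = 0.00113), close to that of *sfaD*. The next genes on either side, chosen as the nearest listed, were AN0083, with means of 4924 in Δ*pkaA* mycelium and 3275 in WT, and AN0080, with 276 and 164. Their log2 ratios of 0.59 and 0.75 are near that of *sfaD* (0.71). The 3 genes nearest to *pkaA* also had higher means in Δ*pkaA* mycelium, with log2 ratios of 0.34 for AN6306, 0.61 for AN6304 and 1.46 for AN6307. Around *pkaR* and *fadA* all 3 had lower means in Δ*pkaA* mycelium, and around *pkaB*, *ganA*, *ganB* and *gpgA* the directions were mixed. AN4985, near *pkaR*, hardly differed (log2 ratio -0.042). AN0652, near *fadA*, had very low means of 3.96 in Δ*pkaA* mycelium and 9.47 in WT. Neighbours were not tested as groups, and how often the 3 nearest genes share a direction over all genes was not worked out.

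The other genes of G protein and cAMP signaling were taken by function text and by identifier, which gave a list of 13, all tested. Of these, 4 rose in Δ*pkaA* mycelium, 4 fell and 5 did not pass by limma, where 31.7% of all genes fitted were called higher and 32.7% lower. By the means 2 differed by at least 2-fold, both lower, where 36.5% of all genes with reads did. The share of the list that was called is near that of all genes by limma. Their median log2 ratio was -0.083, beside -0.0071 over all genes. The largest difference in the list was *rgsA* (AN5755), the RGS protein that acts on GanB. It had normalized counts of 1354 and 1557 in the Δ*pkaA* libraries and a mean of 14496 in WT, from WT libraries of 13556 and 15435 or of 15921 and 13070. The mean was 9.96-fold lower in Δ*pkaA* mycelium, with a log2 fold change of -3.31 (SE 0.12, limma adjusted p = 1.78e-06).

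AN2740 (*pdeB* in RefSeq), the high-affinity cAMP phosphodiesterase, which breaks down cAMP, had normalized counts of 654 and 594 in the Δ*pkaA* libraries, against 2510 and 2739 in the WT libraries. The mean was 4.21-fold lower in Δ*pkaA* mycelium (log2 fold change -2.07, SE 0.11, limma adjusted p = 7.00e-06). The groups were far apart. AN0829 (*pdeA*), the low-affinity phosphodiesterase, fell less, with 368 and 371 in the Δ*pkaA* libraries and 582 and 534 in the WT libraries (log2 fold change -0.59, limma adjusted p = 0.00524). Both phosphodiesterase genes were thus lower. AN3913 (*acyA*), the adenylate cyclase that makes cAMP, had 2199 and 3037 in the Δ*pkaA* libraries and 2498 and 3049 in the WT libraries. The groups overlapped widely, and its log2 fold change was -0.095 (95% interval -0.50 to 0.31, limma adjusted p = 0.645).

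**Figure D4:**
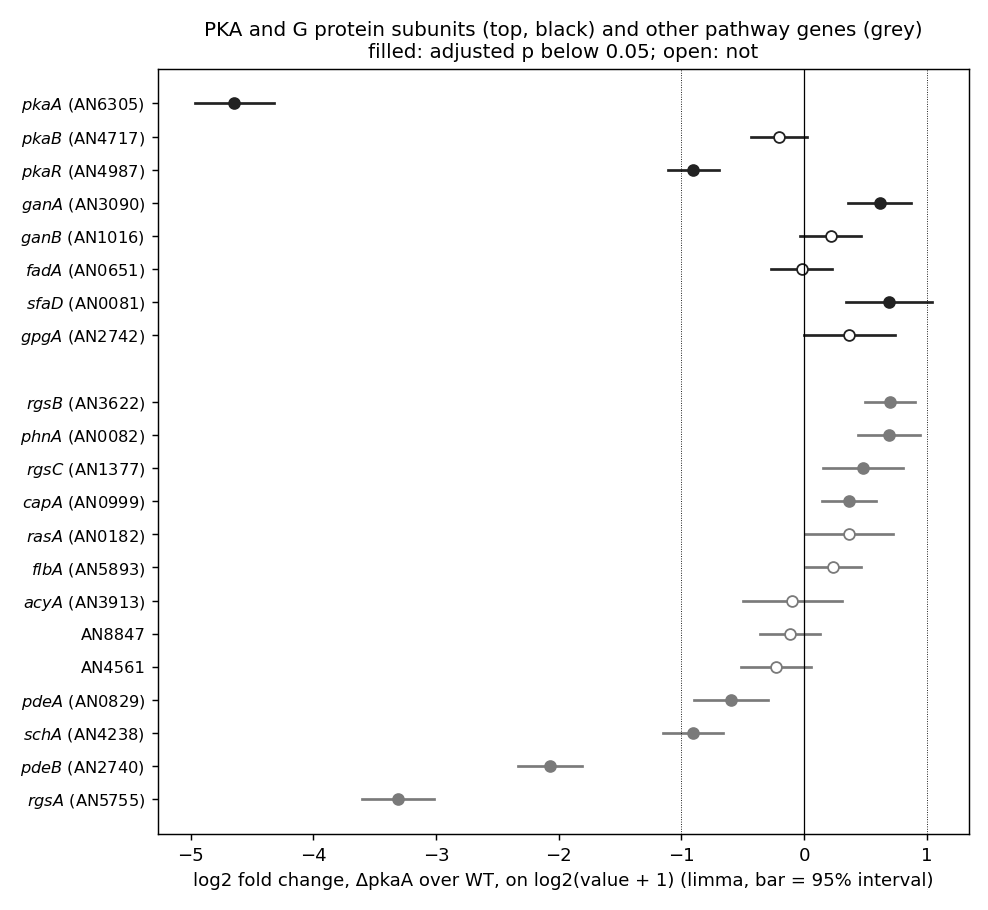
Log2 fold change, Δ*pkaA* over WT, on log2(value + 1) by limma (x axis) for the 8 genes (black, top) and the 13 other pathway genes (grey), with 95% intervals as bars; filled circles passed at an adjusted p below 0.05 and dotted lines mark 2-fold. *pkaA*, *rgsA* and *pdeB* lie beyond 2-fold on the lower side, and no gene lies beyond 2-fold on the higher side.

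Among the RGS genes the directions differed. AN3622 (*rgsB*) had 4337 and 4451 in the Δ*pkaA* libraries, against 2771 and 2644 in the WT libraries, and rose (log2 fold change 0.70, limma adjusted p = 0.000363). AN1377 (*rgsC*) had 1264 and 1614 in the Δ*pkaA* libraries and 1001 and 1046 in the WT libraries, and rose by less (0.48, limma adjusted p = 0.0182). Its call was lost without Δ*pkaA* library b (adjusted p = 0.116). *flbA* (AN5893), the RGS protein of FadA, had 2928 and 3251 in the Δ*pkaA* libraries and 2618 and 2621 in the WT libraries, and did not pass (log2 fold change 0.24, 95% interval 0.012 to 0.46, limma adjusted p = 0.0626). With rescaling to the same sum it passed (adjusted p = 0.0216). Of the 4 RGS genes 2 rose, *rgsA* fell and *flbA* did not pass.

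AN0999 (*capA*), the cyclase-associated protein, had 4223 and 3850 in the Δ*pkaA* libraries and 3208 and 3041 in the WT libraries, and rose (log2 fold change 0.37, limma adjusted p = 0.0108), a call lost without Δ*pkaA* library a (adjusted p = 0.0982). Δ*pkaA* pairs of 3322 and 4751 and of 5124 and 2949, outside the limit of 0.5, also give the mean of *capA*. The pair of 5124 and 2949 has a library below both WT libraries. *rasA* (AN0182), a Ras GTPase of development, had means of 4613 in Δ*pkaA* mycelium and 3534 in WT. Its call, like that of *gpgA*, turned on the pair of libraries, with a limma adjusted p of 0.0680 for the wider pair and of 0.00754 to 0.00761 for the closer pair. With the wider pair its log2 fold change was 0.37, and 0.13 without Δ*pkaA* library a (adjusted p = 0.413). It passed without Δ*pkaA* library b (0.60, adjusted p = 0.0155), without WT library a (adjusted p = 0.0362) and with rescaling to the same sum (adjusted p = 0.034). AN4238 (*schA*), a protein kinase, had 3976 and 4166 in the Δ*pkaA* libraries, against 7033 and 8263 in the WT libraries, and fell (log2 fold change -0.91, limma adjusted p = 0.000242), which is about the size of the difference of *pkaR*. The phosducin-like genes AN4561 and AN8847, unlike *phnA*, did not pass (limma adjusted p = 0.135 and 0.36), although AN4561, with a log2 fold change of -0.23, passed without WT library b (-0.37, adjusted p = 0.0194) and stood at -0.089 without WT library a (adjusted p = 0.545). Of 14 genes annotated as G protein-coupled receptors, the membrane proteins that act upstream of G proteins, 13 were tested by limma, of which 4 rose and 6 fell, again where 31.7% and 32.7% of all genes did. By the means 4 of the 14 were at least 2-fold higher and 5 at least 2-fold lower, where 17.9% and 18.6% of all genes with reads were.

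*pkaR* had the largest difference of the 7 genes other than *pkaA*. The 3 genes whose pair of strain means lay closest to its own were AN6284 (1914 in Δ*pkaA* mycelium and 3478 in WT), AN3132 (1924 and 3629) and AN4486 (1903 and 3670), at distances of 0.029, 0.047 and 0.056 on the log2 scale. The likeness is over 2 strain means only.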

How the data were processed

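RNA was sequenced from 2 samples per strain, with 2 technical replicates of each per the labels, as 100-base reads. The authors aligned the reads with Bowtie2, counted them per gene with HTSeq and compared the strains with DESeq. The sources used here give neither versions nor the genome build, nor how technical replicates entered the counts. The authors deposited, as a signal, 1 mean normalized count per gene and strain. They also deposited fold changes, p-values and q-values of their own comparison, which were not used. A second deposited table lists 190 genes and none of the 8, and sets 1405, the number of the parental strain, against AN1405, the name the labels give the WT. The column of the first side repeats the WT means of the main table under other size factors, and was used to check the recovery alone. The other 1 column of values was left out, because which libraries it holds is not given, and whether it rather than the first is the labelled WT was not settled. Headers of the study's own tables gave the strain for each column.

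A mean is the average of whole reads in 2 libraries, each divided by a size factor. The size factors were solved from means up to 450 (1.02 and 0.982 in Δ*pkaA* mycelium, 1.04 and 0.96 in WT), and the pairs of whole reads that give each mean within 5e-05 were listed. A pair was taken when no other could give the mean, or when it was the only one with libraries within 0.5 on the log2 scale. The limit of 0.5 is an assumption. Where 1 pair alone was possible, 4.73% of 2198 WT means between 800 and 2000 exceeded it, and 1.48% of 1151 Δ*pkaA* means between 400 and 800. Of the Δ*pkaA* means between 800 and 2000, 179 had 1 pair alone. A pair past the limit is never the only one there, so the 0% of them past it was fixed in advance and is no check. Between 2000 and 6000, 2.18% of 321 WT means with 1 pair alone did. At nearly all of these means a pair past the limit would not be the only one, so this share does not check the limit. Of the Δ*pkaA* means between 2000 and 10000, 0 had 1 pair alone, so the limit could not be checked there. The Δ*pkaA* means of *ganA*, *ganB*, *fadA*, *sfaD* and *gpgA* lie in that range. So do those of *acyA*, *capA*, *flbA*, *phnA*, *rasA*, *rgsB* and *schA* of the pathway list. Those of *pkaB*, *pkaR*, *rgsA*, *rgsC*, AN4561 and AN8847 lie between 800 and 2000. For *flbA* a Δ*pkaA* pair of 3829 and 2350, outside the limit, also gives the mean and has a library below both WT libraries. In the second table, made with other size factors, 147 of 147 WT pairs with means up to 6000 were recovered to within 0.001, as were 15 of 18 above.

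Genes recovered in all 4 libraries with an average of at least 10 were fitted by limma 3.58.1 (R 4.3.3) on log2(value + 1) with a trend of variance on mean, 2-sided, with Benjamini-Hochberg adjustment. Of the genes described, *sfaD*, *gpgA*, *rasA* and *rgsA* entered with the possible pair whose libraries differ most. The fit was tested on simulated data for 7866 genes, where it called 163 of 170 genes changed 2-fold and 11 unchanged genes. The simulation gave both strains the same noise between libraries and held no change below 2-fold. In the data 64.4% of genes were called. The log2 ratio of the libraries had an SD of 0.17 in Δ*pkaA* mycelium and 0.25 in WT at means of 800 to 2000. The simulation therefore does not give the error rate of the calls made here. The 2 samples of a strain are biological replicates per the design text. The p-values measure the spread between the 2 recovered libraries of a strain. These libraries could not be matched to the labelled replicates, and how technical replicates entered them is not given. Where a pair was taken by the limit on the log2 scale, that limit also caps the spread, so the p-values may not give the spread between the biological samples. Levels per 1000 bases used the listed spans, which carry no chromosome name. Chromosomes and symbols came from RefSeq (ASM1142v1, matched for 9971 of 10721 identifiers), and none of its coordinates is given. Gene and promoter sequences were not analysed here. Further tools were matplotlib 3.10.9, SciPy 1.17.1, pandas 2.3.3 and NumPy 2.4.6 in Python 3.11.15.

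The 8 genes and the lists were chosen with earlier results of these data known. The rule named all 8 genes, *flbA*, *rgsA*, *phnA*, *rasA* and any other pathway gene past 2-fold with an average of at least 100 (*pdeB*), the 3 genes nearest to *pkaR* and the conidiophore genes. The other 8 genes of the pathway list, and the neighbours on the chromosome, were named after their values were seen. The alternatives were other pseudocounts (0.5 and 10), filters, thresholds, fold limits and scalings, each library left out in turn, and other gene lengths. The scalings in the limma fit of the 8 genes, the choice of pair, the fit to single pairs alone, the limma alternatives of the pathway list other than its filter at 100 and its scalings, and the RefSeq lengths were chosen after seeing the data.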

Additional observations from a re-analysis of the deposited data

How the results depend on the processing

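Over 15 settings, 104 of 113 values of the 8 genes kept their direction and their side of the threshold, 0 lost a call, 7 gained one (*ganB* and *gpgA*) and 2 turned sign (*fadA*). The log2 fold change of *fadA* was 0.061 with means rescaled to the same sum, a shift of 0.081, and lay between -0.13 and 0.086 with 1 library left out. For the adenylate cyclase gene AN3913 it lay between -0.33 and 0.14 with 1 library left out. In the pathway list 169 of 183 values kept their call, 4 lost it, 8 gained it and 2 turned sign. In that list the settings with another pair changed the library values of *rasA* and *rgsA* alone, and *rasA* gained its call on the same closer pair in each. With only genes of a single possible pair of libraries, 1 of the 8 genes and 1 of the pathway list were called, in place of 4 and 8, because fewer genes could be tested. Leaving out 1 library gave 4 to 5 and 7 to 9 calls. At a 1.5-fold limit 4 of the 8 genes and 6 of the pathway list passed, in place of 1 and 2. Of the conidiophore genes 1 passed at 4-fold and 2 at an average of at least 100, in place of 4. With RefSeq gene lengths, *pkaR* over the catalytic subunits was 0.909 in Δ*pkaA* mycelium and 0.822 in WT, *sfaD* over *gpgA* was 1.04 and 0.831, and the summed α subunits over *gpgA* were 1.03 and 1.11. No paired analysis was possible because the recovered libraries carry no replicate number. Count tests and coding lengths were planned and not run, since high means leave several pairs of whole reads possible and no coding sequences were used. This also limits the depth of the test, as 36.4% of the Δ*pkaA* means between 2000 and 10000 had no single pair within the limit.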
